A study of Mus musculus with 24 samples.

Results

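The 10 genes of ependymal cells and motile cilia (Foxj1, Ccdc153, Tmem212, Dynlrb2, Rsph1, Spef2, Dnah11, Hydin, Ccdc39 and Mia) were followed through bulk RNA sequencing of mouse hippocampus. They were chosen with earlier results of these data known and taken by symbol, 10 of 24062 genes in the count table. All 10 passed the filter on low counts that left 16312 genes for testing. The study crossed genotype with stress in C57BL/6 mice: wild type (WT) or a knockout of the interleukin-1 receptor IL-1R1 that the series describes as neuronal (KO), each as controls or after social defeat by paired fighting. There were 7 control and 6 stress libraries of WT and 6 control and 5 stress libraries of KO mice, each from micro-dissected hippocampi. The sources used here do not name the driver of the knockout or the age of the mice. The targeted gene had 3.35 ± 1.31 CPM (counts scaled to library size; SD, n = 7) in WT controls and 3.44 ± 1.21 (n = 6) in KO controls. Under stress Il1r1 had 5.56 ± 1.45 CPM (n = 6) in WT and 5.54 ± 1.77 (n = 5) in KO, so the count over the whole gene did not tell the genotypes apart.

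The libraries held 25711872 to 35148198 counts, and 3 counts, the limit that a count of 0 allows if counts are independent, correspond to 0.0854 to 0.117 CPM. Between 70.9 and 75.8% of counts from 1 to 10 were even, and whether both mates of a fragment were counted is not known. If they were, such limits are higher. The hippocampal transcripts Neurod6 (56.0 to 244 CPM), Wfs1 (105 to 279 CPM) and Prox1 (4.16 to 13.8 CPM) were present in all 24 libraries. Before any comparison, 3 divisions of the libraries have to be named. The ribosomal RNA precursor Rn45s split them into 11 libraries at 24238 to 50453 CPM and 13 at 4107 to 8786 CPM, spread over all 4 groups. Hcrt, a neuropeptide of the lateral hypothalamus, had 5.26 to 56.2 CPM in 8 libraries (WT stress replicate 5, KO control replicates 2, 3 and 4, and all KO stress libraries but replicate 4) and at most 0.766 CPM in the others. Tcf7l2, a transcription factor abundant in thalamus, had 105, 109 and 86.9 CPM in the WT stress library 5 and in libraries 3 and 5 of KO stress. These 3 are low in Rn45s. Elsewhere Tcf7l2 had 26.3 to 60.7 CPM in the 11 libraries high in Rn45s and 5.66 to 16.7 CPM in the remaining low ones. Its level thus followed the Rn45s sets in part, and the 3 libraries are not the only ones with raised Tcf7l2.

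Ependymal cells form the ciliated lining of the brain ventricles, and their motile cilia move the cerebrospinal fluid. Foxj1 is the transcription factor that switches on the genes of motile cilia, together with factors of the RFX family, which bind X-box motifs in the promoters of many cilium genes. The axoneme is built of microtubule doublets with dynein arms, radial spokes and a central pair, and the products of most of the genes described here sit on these parts. The choroid plexus borders the ependyma in the ventricles next to the hippocampus. Its epithelium makes transthyretin, the product of Ttr, in large amounts, which makes Ttr a marker of that tissue.

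RefSeq promoter windows (GRCm38.p6, 250 bases before to 50 after the start) were matched for 8 of the 10 genes, all but Foxj1 and Rsph1. The RFX core motif GTTGCC, searched on both strands (GGCAAC on the other), stood in 4 of these 8 windows (50%). It stood in 35 of 80 windows (43.8%) of the other motile cilia and ependymal genes described further on, and in 4111 of all 32851 windows of that length (12.5%). The 4 stretches are shown because these genes are among those that varied together across libraries, with the motif in capitals and each written 5′ to 3′ on the strand of its gene.
Hydin, chr8:110266917-110266976, plus strand: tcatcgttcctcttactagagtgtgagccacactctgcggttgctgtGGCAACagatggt
Dynlrb2, chr8:116504937-116504996, plus strand: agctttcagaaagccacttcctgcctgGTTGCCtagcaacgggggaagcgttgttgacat
Ccdc153, chr9:44240498-44240557, plus strand: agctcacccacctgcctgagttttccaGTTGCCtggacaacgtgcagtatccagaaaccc
Spef2, chr15:9748843-9748872, minus strand: ccttagcaactgGTTGCCctgggcgacggg

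Counted from the RefSeq transcript start, the match began 13 bases before that of Hydin, 51 before that of Dynlrb2 and 152 before that of Ccdc153, and at base 8 after that of Spef2. For Dynlrb2 this start lies downstream of the GENCODE gene start given with the levels, so part of its stretch is inside the GENCODE gene. In Hydin (gttgctgtggcaac) and Dynlrb2 (gttgcctagcaac) the core faced a second, inverted GTTGC within 3 bases. Such a pair, a pattern chosen after the sequences were seen, stood in 2 of the 8 windows (25%), in 7 of the 80 windows of the other cilium genes (8.75%) and in 97 of all windows (0.295%). The strict palindrome GTTNCC followed within 3 bases by GGNAAC was in none of the 8 windows, in 6 of the 80 and in 0.804% of all. The forkhead motif TGTTTAC (both strands) was likewise in none of the 8, in 4 of the 80 and in 3.65% of all. These are matches of letters and show no binding.

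Foxj1 and Rsph1 had the highest levels for their length. Per kilobase of exon, mean levels over the 24 libraries were 6.46 ± 2.44 CPM (SD) for Foxj1 and 5.07 ± 1.91 CPM for Rsph1, a radial spoke head protein. Next came Tmem212, a membrane protein found in ependyma (3.33 ± 1.76), and Ccdc153, a coiled-coil protein much used as an ependymal marker (3.31 ± 1.59). Dynlrb2, a dynein light chain, had 3.14 ± 1.90, and the differences between these genes were not tested. Mia, a secreted protein first known from melanoma and cartilage and not a part of the axoneme, had 2.46 ± 1.19 CPM per kilobase, and Ccdc39 had 1.23 ± 0.134. The long genes were far lower per kilobase: Hydin, of the central pair, had 0.0754 ± 0.0489, Dnah11, a heavy chain of the outer dynein arm, 0.0476 ± 0.0292, and Spef2, also of the central pair, 0.0375 ± 0.0285. In counts this meant 232 to 1047 per library for Foxj1 but 0 to 34 for Spef2, 2 to 50 for Dnah11 and 9 to 100 for Hydin.

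Of the genes, 9 spanned a wide range across the 24 libraries, and Ccdc39 did not. The highest library exceeded the lowest 4.29-fold for Rsph1, 4.47-fold for Foxj1, 8.03-fold for Ccdc153, 10.4-fold for Tmem212, 11.6-fold for Hydin and 24.3-fold for Dnah11. Ccdc39, which with Ccdc40 sets the repeat length of the axoneme, stayed between 7.53 and 10.96 CPM (1.46-fold). Its gene (chr3:33812362-33844310, minus strand) overlaps Ttc14 (chr3:33799832-33814860, plus strand), which had 54.7 to 79.3 CPM, and the sources used here do not say whether counting used the strand, so reads of the overlap cannot be assigned. Dnah11 (chr12:117877982-118199043, minus strand) overlaps the end of Cdca7l in the same way, and Cdca7l had 0.136 to 1.76 CPM. Dynlrb2 (chr8:116504974-116515915) has a close paralog, Dynlrb1, at 145 to 224 CPM, and its reads are uncertain to that extent. The other genes lie at chr11:116330704-116335399 (Foxj1), chr9:44240676-44247306 (Ccdc153), chr3:27866066-27896368 (Tmem212), chr17:31255019-31277383 (Rsph1), chr15:9578193-9748868 (Spef2), chr8:110266977-110610253 (Hydin) and chr7:27179742-27181157 (Mia), in mm10 coordinates.

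The same few libraries stood at the ends of the range. KO stress replicate 3 was the highest of all 24 for 7 of the 10 genes and among the 5 highest for all 10. WT stress replicate 3 was the lowest for 5 genes and among the 5 lowest for 9. WT control replicate 6 and WT stress replicate 5 were each among the 5 highest for 7 genes. KO stress replicate 3 and WT stress replicate 5 were high in both Hcrt and Tcf7l2 (Hcrt 56.2 and 25.7 CPM, Tcf7l2 109 and 105 CPM). WT control replicate 6 was low in both (Hcrt 0.121 CPM, Tcf7l2 9.80 CPM) and had the highest Ttr of all libraries, 2440 CPM.

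Across groups the KO stress libraries had the highest median for every gene, but the groups overlapped almost everywhere. Foxj1 had 11.5 to 24.3 CPM (median 13.5) in WT controls, 10.1 to 27.3 (median 11.7) in WT stress and 7.87 to 20.2 (median 16.5) in KO controls. In the KO stress libraries it had 20.8, 25.2, 35.1, 19.2 and 21.5 CPM, so that the lowest of them lay within the range of each other group. WT stress replicate 5, at 27.3 CPM, stood above 4 of the 5 KO stress libraries.

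Rsph1 and Ccdc153 repeated this order with more overlap. Rsph1 had medians of 6.14, 5.05 and 7.45 CPM in WT controls, WT stress and KO controls, and 7.06, 9.47, 11.6, 8.48 and 7.96 CPM in the KO stress libraries. Ccdc153 had medians of 6.12, 3.66 and 6.68 CPM in the same order, and 11.7, 9.33, 15.002, 6.73 and 6.22 CPM in KO stress. The lowest WT stress libraries, replicates 2 and 3, had 1.87 and 1.96 CPM of Ccdc153. Dynlrb2 ran from 0.450 to 3.44 CPM in WT stress (median 0.731) and had 2.63, 3.13, 3.86, 1.76 and 1.94 CPM in KO stress. For Dynlrb2 the top of the WT stress range was again replicate 5, and the other 5 WT stress libraries were all below the KO stress libraries.

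**Figure D1:**
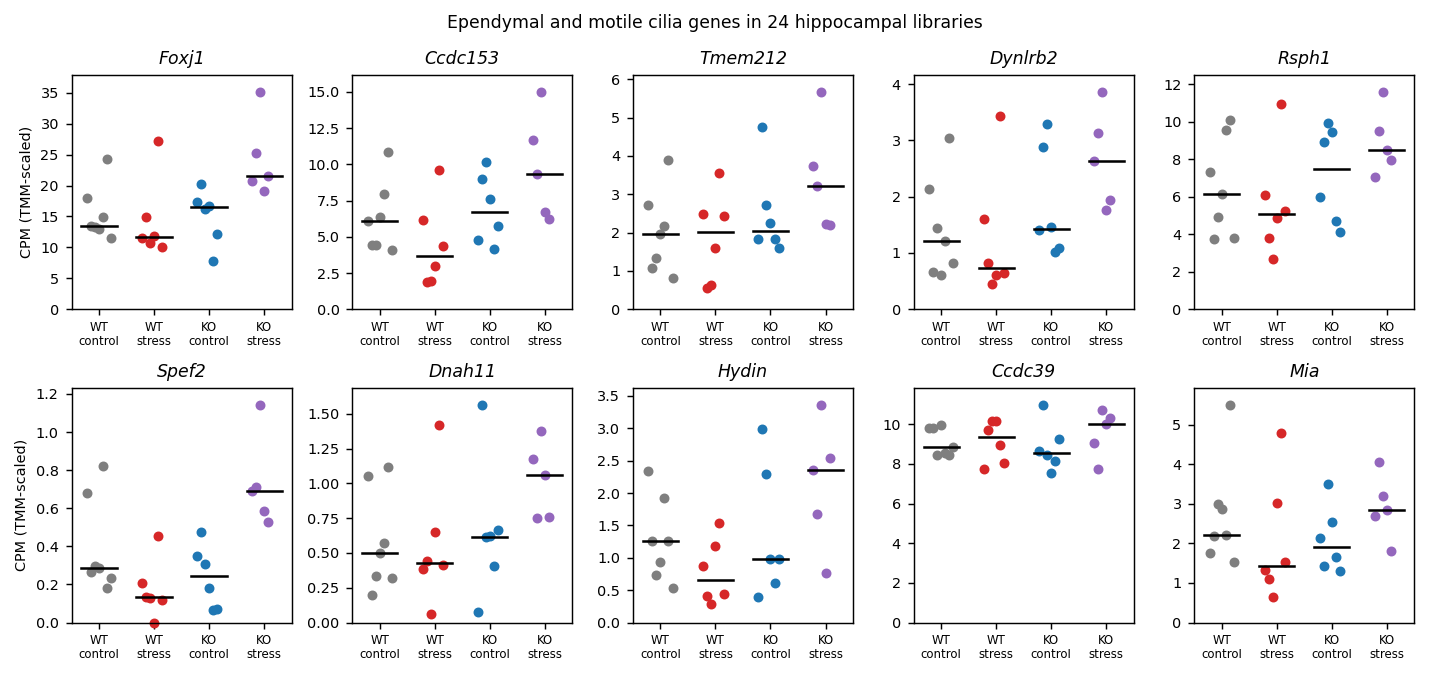
CPM of each gene (vertical axes, linear from 0, each panel with its own scale) in the 24 libraries by group (horizontal axes); each point is a library and each bar the group's median. KO stress libraries lie high in most panels, WT stress has 1 high library (replicate 5) in most of them, and Ccdc39 is level.

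Among the central pair and dynein genes, Spef2 was the only gene of the 10 with a comparison free of overlap, among those of stress with control within a genotype and of KO with WT within a condition. Its KO stress libraries did not overlap with KO controls or with WT stress, while the WT groups overlapped, as did the control groups. Spef2 had 0.181 to 0.821 CPM (median 0.287) in WT controls, 0 to 0.455 (median 0.132) in WT stress and 0.0678 to 0.475 (median 0.245) in KO controls. Its KO stress libraries had 0.692, 0.712, 1.14, 0.585 and 0.526 CPM, all above every KO control and every WT stress library. The lowest WT stress library, replicate 4, had 0 counts of Spef2, which allows up to 0.115 CPM if counts are independent and more if mates were counted separately. Of the 16312 tested genes, 0.300% did not overlap, in either direction, between the KO groups and 0.245% between the stress groups. The shares were 0.282% between the WT groups and 0.0552% between the controls, where none of the 10 genes stood apart. Hydin had medians of 1.27, 0.656 and 0.980 CPM in WT controls, WT stress and KO controls, and 2.35, 1.67, 3.36, 0.768 and 2.53 CPM in KO stress, where replicate 4 lay within the range of all other groups. Dnah11 ranged from 0.0643 CPM (WT stress replicate 3) to 1.56 CPM (KO control replicate 2), and its KO stress libraries had 1.18, 0.748, 1.38, 1.06 and 0.757 CPM.

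Tmem212 and Mia overlapped between all groups. Tmem212 had medians of 1.98 CPM in WT controls, 2.02 in WT stress, 2.04 in KO controls and 3.20 in KO stress. Mia had 2.21, 1.43, 1.90 and 2.85 CPM in that order, and its highest library was WT control replicate 6 at 5.49 CPM. Ccdc39 had medians of 8.86, 9.34, 8.56 and 10.02 CPM, and its groups overlapped throughout.

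No gene of the 10 passed the test in any comparison of groups. Each was tested with edgeR's quasi-likelihood F test in 1 fit over the 4 group means, with Benjamini-Hochberg adjustment over 16312 genes, and with DESeq2 and limma-voom as other tools, which also called none of the 10. Social defeat in WT mice was called for 0 of the 10 genes against 0.135% of all genes. Their median log2 change was −0.19 (all genes −0.0012), 1 of 10 was above 0 and 1 had an unadjusted p under 0.05 (4.41% of all genes). Social defeat in KO mice was called for 0 of the 10 genes against 0.00613% of all genes. Here the median log2 change was 0.51 (all genes 0.0051), all 10 were above 0, and 2 had an unadjusted p under 0.05 (3.97% of all genes). KO against WT in controls gave 0 of 10 (background 0%), a median of 0.11 with 6 of 10 above 0, and none with an unadjusted p under 0.05 (3.02% of all genes). The comparison of controls shares libraries with each comparison of stress, so its direction is not independent of theirs.

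The largest median difference lay between the genotypes under stress, and it did not pass. KO stress against WT stress gave 0 calls among the 10 genes, with none among all 16312 (0%), but all 10 log2 differences were above 0, with a median of 0.86 against −0.0037 for all genes. An unadjusted p under 0.05 was found for 6 of the 10, against 4.71% of all genes. All of the 10 but Ccdc39 varied together across libraries, so these counts are not of independent results. Spef2 was higher in KO stress by 2.01 ± 0.56 (log2 fold change ± SE; unadjusted p = 0.0015, edgeR's quasi-likelihood test), Hydin by 1.44 ± 0.50, Ccdc153 by 1.12 ± 0.37, Dynlrb2 by 1.07 ± 0.48, Foxj1 by 0.76 ± 0.26 and Rsph1 by 0.66 ± 0.31. The adjusted p by edgeR was 0.798 for each of these. Dnah11 (0.85 ± 0.56), Tmem212 (0.86 ± 0.43), Mia (0.50 ± 0.40) and Ccdc39 (0.07 ± 0.11) had unadjusted p above the threshold. The interaction of genotype and stress was called for 0 of the 10 genes (0% of all), with a median of 0.74 and 2 unadjusted p under 0.05 (2.35% of all genes). Those were Foxj1, at 0.80 ± 0.35, and Spef2, at 2.70 ± 0.77 (adjusted p = 0.99999 for both, edgeR). Within KO mice Foxj1 differed by 0.69 ± 0.26 and Spef2 by 1.58 ± 0.55 between stress and control (edgeR's adjusted p = 0.988 for both). Within WT mice the values were −0.11 ± 0.24 and −1.12 ± 0.54, neither with an adjusted p under 0.05 (edgeR).

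Markers of neighbouring tissues are given beside these values, and no gene of the 3 marker lists used here passed edgeR's test in a comparison of groups. Ttr had medians of 333 and 54.8 CPM in WT controls and WT stress and 625.1 and 1462 CPM in KO controls and KO stress, and the 5 KO stress libraries had 1354, 1462, 1919, 1718 and 724 CPM. The WT stress libraries had 98.2, 6.87, 10.6, 642, 2010 and 11.3 CPM of Ttr, of which replicates 4 and 5 were nearest to the KO stress libraries. The summed level of 21 choroid plexus markers without Ttr was 134 to 837 CPM in WT stress and 470 to 873 CPM in KO stress. That of 16 tanycyte and hypothalamus markers was 143 to 291 and 183 to 396 CPM, and that of 16 thalamus and habenula markers 149 to 964 and 199 to 1019 CPM. Such sums are carried by the most abundant genes and are not amounts of tissue. Enpp2 of the choroid plexus list alone had 77.1 to 597 CPM over all libraries. In WT controls, with at most 0.357 CPM of Hcrt, the hypothalamus sum was still 130 to 339 CPM. For KO against WT under stress the median log2 difference was 1.23 for the choroid plexus list, 1.64 for the hypothalamus list and 0.78 for the thalamus list. In that order, 21 of 21, 14 of 16 and 16 of 16 tested genes were above 0. For stress in WT the median was −0.43 for the choroid plexus list, below 0 like that of the 10 genes. It was 0.97 and 0.21 for the hypothalamus and thalamus lists. The part of these tissues in the values of the 10 genes was not tested. Bulk tissue does not show which cells made these transcripts. A larger number of such cells in a sample and more RNA per cell cannot be told apart either.

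Across the 24 libraries, 9 of the 10 genes rose with Ttr, whose level spanned 6.87 to 2440 CPM (355-fold). Pearson's r between log2(CPM + 0.5) of gene and Ttr was tested by permutation with 100000 resamples for every tested gene and adjusted over all 16312. Calls were made for 9 of the 10 genes, all with r above 0, against 1.28% of all genes (1.21% with r above 0). The genes were chosen with earlier results of these data known, so this share is a scale and no independent test of the list. Rsph1 had r = 0.83 (Spearman's rho 0.87) and Dynlrb2 r = 0.77 (rho 0.84), with a permutation p of 1e-05 each, the smallest the resamples can give, and an adjusted p of 0.00244. Ccdc153 (r = 0.77, rho 0.84) and Foxj1 (r = 0.76, rho 0.84) followed with an adjusted permutation p of 0.00418. Hydin (0.75), Mia (0.71), Tmem212 (0.69), Dnah11 (0.68) and Spef2 (0.66) had adjusted permutation p between 0.0107 and 0.0489. Ccdc39 had r = 0.05 and rho = 0.10 (adjusted permutation p = 0.923).

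**Figure D2:**
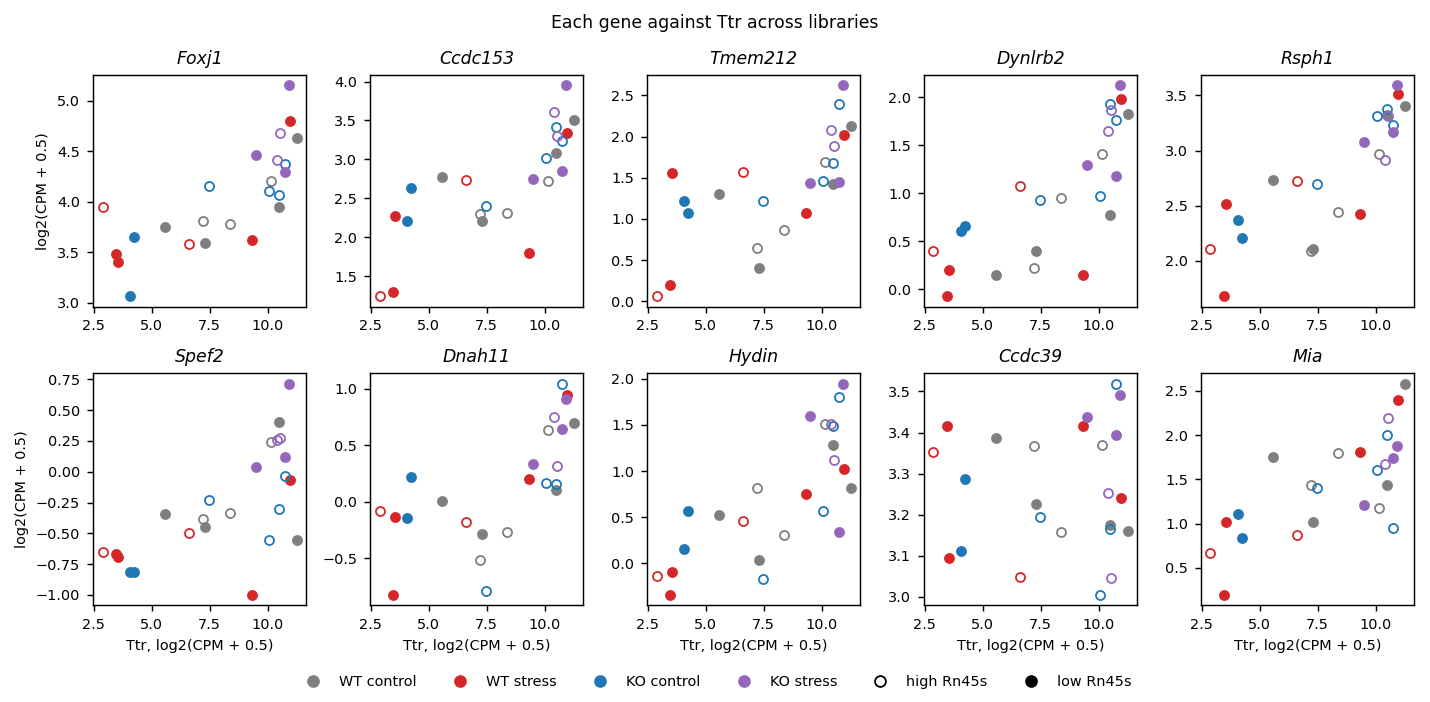
log2(CPM + 0.5) of each gene (vertical axes) against that of Ttr (horizontal axes) in 24 libraries; colours give the group, open points the 11 libraries high in Rn45s and filled points the 13 low in Rn45s. Points climb from lower left to upper right in every panel except that of Ccdc39, and both kinds of point lie along the same band.

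The relation held in size within both Rn45s sets, though neither set alone gave a call among the 10 genes. Within the 11 high libraries r was 0.61 to 0.91 for the 9 genes, and within the 13 low libraries 0.61 to 0.84. Ccdc39 had −0.10 and 0.24. The 2 libraries farthest from the median of Ttr were WT stress replicates 2 and 3, with 6.87 and 10.6 CPM. Without them r was 0.55 to 0.80 for the 9 genes, and 3 of them (Foxj1, Rsph1 and Dynlrb2) still passed, while the other 6 did not. Leaving them out also shortens the range of Ttr and leaves fewer libraries. No other pair was left out for comparison. With the 4 group means taken out, r was 0.49 to 0.81 for the 9 genes, and Rsph1 alone passed (r = 0.81, adjusted permutation p = 0.0207).

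The counts gave the steepness of the relation. A term for log2 Ttr beside the 4 group means was called by edgeR for 6 of the 10 genes, all with a positive slope, against 0.907% of all genes (0.901% with a positive slope). An unadjusted p under 0.05 was found for 9 of the 10, against 8.23% of all genes. As for the correlation, the choice of genes was made with earlier results of these data known. The slope was 0.26 ± 0.045 for Dynlrb2 (log2 change per doubling of Ttr ± SE; adjusted p = 0.00157), 0.24 ± 0.054 for Hydin (0.0217), 0.19 ± 0.042 for Mia (0.0252), 0.17 ± 0.027 for Rsph1 (0.000604), 0.17 ± 0.038 for Ccdc153 (0.0207) and 0.12 ± 0.026 for Foxj1 (0.0127). Over the whole range of Ttr these slopes amount to a fitted 4.59-fold difference for Dynlrb2, 4.08-fold for Hydin and 2.05-fold for Foxj1. Dnah11 (0.22 ± 0.063), Spef2 (0.22 ± 0.075) and Tmem212 (0.19 ± 0.049) had slopes of the same size that did not pass (adjusted p = 0.124, 0.290 and 0.0842, edgeR). Ccdc39 had −0.0016 ± 0.016.

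The slopes of the ependymal genes lay below those of the leading choroid plexus genes, and their fitted levels did not go to 0 with Ttr. Clic6, a chloride channel protein of the choroid plexus, had a slope of 0.64 ± 0.037, and the folate receptor Folr1 0.75 ± 0.046. On the linear scale, a straight line through the 24 libraries left 68.1% of the mean level of Foxj1 at no Ttr, 64.4% of that of Rsph1, 58.6% of that of Ccdc153 and 46.3% of that of Dynlrb2. The same line left 14.1% for Clic6, 7.69% for Folr1 and 15.5% for the potassium channel Kcnj13. It was not fitted for the other choroid plexus markers, so these values do not stand for that list. Of the others, Slc13a4 ran from 5.16 to 22.5 CPM and Enpp2 from 77.1 to 597 CPM across the libraries, but Kcne2 from 0 to 12.9 CPM. Libraries low in Ttr scattered around these lines. WT stress replicate 2, at 6.87 CPM of Ttr, had 14.9 CPM of Foxj1, above the fitted 11.5 CPM at no Ttr, but its 1.87 CPM of Ccdc153 and 0.544 CPM of Tmem212 were the lowest of all 24 libraries and below the fitted 3.95 and 1.34 CPM. KO control replicate 5, at 16.3 CPM of Ttr, had 7.87 CPM of Foxj1, and WT stress replicate 3, at 10.6 CPM, had 10.7 CPM.

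The number of calls changed when single libraries were left out and when marker lists of other tissues were added as terms. Leaving out WT stress replicate 5 left 1 call, Rsph1 (57 genes in all against 148). Leaving out KO control replicate 3 or WT stress replicate 3 left 3, and leaving out WT control replicate 6, WT stress replicate 2 or KO control replicate 5 left 4. Rsph1 passed in all 24 such fits, Foxj1 and Dynlrb2 in 23 each. Without the 3 libraries highest in Tcf7l2 (KO stress replicates 3 and 5, WT stress replicate 5), 1 of the 10 genes passed, Rsph1 with a slope of 0.16. With the mean level of the hypothalamus markers as a further term none passed, and slopes were 0.19 for Dynlrb2, 0.15 for Rsph1, 0.16 for Hydin and 0.086 for Foxj1. With the thalamus markers in that place Rsph1 alone passed (0.17, edgeR's adjusted p = 0.00853). These settings were chosen after the data were seen, and the part of each tissue in the relation was not tested.

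Other genes of motile cilia also had slopes on Ttr past the threshold. The lists that hold them were likewise chosen with earlier results of these data known. In 6 further lists of the ciliary apparatus and of ependymal markers, 95 of 99 genes could be tested, and edgeR's slope on Ttr was called higher for 21 and lower for 0, with a median of 0.09 against −0.00025 for all genes. A list of multiciliation regulators that also held tektins gave 0 of 12 (median 0.05). The tektin Tekt1 had the smallest p among them, with a slope of 0.11 ± 0.035 (adjusted p = 0.234, edgeR). Axonemal dyneins gave 3 of 18 (median 0.08): Dnah6 at 0.23 ± 0.037, Dnali1 at 0.24 ± 0.040 and Dnaic2 at 0.13 ± 0.030. Dynein assembly factors gave 1 of 9, Dnaaf3 at 0.16 ± 0.035. Radial spoke and central pair genes gave 4 of 17, among them Ak7 (0.22), the spoke head gene Rsph4a (0.18) and Dnajb13 (0.30). Genes of the axonemal ruler and of the nexin link gave 4 of 11, among them Ccdc135 (0.40), Drc1 (0.10) and Lrrc48 (0.09). Other ependymal markers gave 9 of 28 (median 0.13), led by Calml4 (0.42), Pifo (0.37) and Ccdc108 (0.15).

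Lists of other cells and of the primary cilium follow, to be read against the 0.907% of all genes that had a call. Of 30 genes of intraflagellar transport and the primary cilium, which nearly every cell carries, 0 had a slope past edgeR's threshold and 1 an unadjusted p under 0.05, with a median of 0.0048. Markers of the subventricular zone and neuroblasts (0 of 12, median 0.0061), meningeal fibroblasts (0 of 12, median 0.014) and astrocytes (0 of 12, median 0.00098) gave no calls either, with unadjusted p under 0.05 for 2, 1 and 0 of them. Choroid plexus markers gave 19 of 21 (median 0.49), tanycyte and hypothalamus markers 5 of 16 (median 0.45, among them Gpr50 at 0.62, Hcrt at 0.9999 and Pmch at 1.14) and thalamus and habenula markers 1 of 16 (median 0.19, Prkcd at 0.32). By edgeR, unadjusted p was under 0.05 for 21, 12 and 12 of them. The median slope of the 10 genes was 0.19, as for the thalamus list. In the 5 comparisons of groups, edgeR called none of the 95 other motile cilia and ependymal genes. Their median log2 changes were −0.11 for stress in WT, 0.29 for stress in KO, 0.46 for the interaction, 0.0042 between the genotypes as controls and 0.49 between them under stress.

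**Figure D3:**
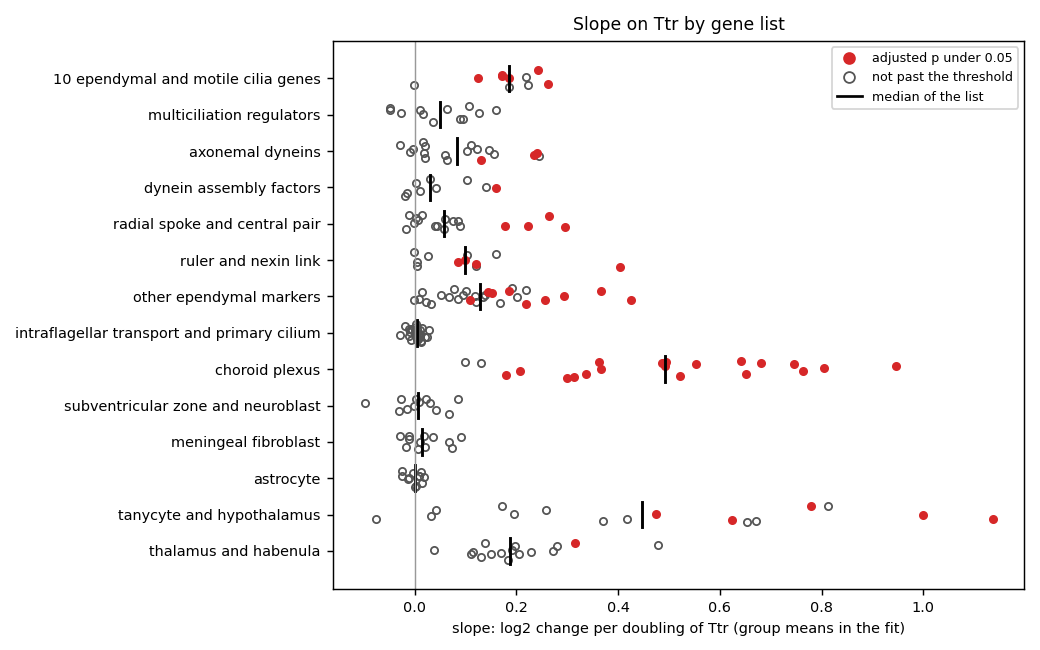
Slope on Ttr (horizontal axis, log2 change per doubling of Ttr with the group means in the fit) of each tested gene of 14 lists; filled red points have an adjusted p under 0.05 and vertical bars mark medians. The choroid plexus list lies farthest right with the hypothalamus list, the ependymal and motile cilia lists lie between these and 0, and the primary cilium list is gathered at 0.

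With log2 Ttr in the fit, the genotypes under stress lay closer together for 9 of the 10 genes. The median log2 difference of KO stress over WT stress was 0.16 with that term and 0.86 without it, and 0 of the 10 genes then had an unadjusted p under 0.05. With Ttr in the fit, 2 genes still had one for stress in KO (2 without the term), 1 for the interaction (2 without), 1 for KO against WT as controls (0 without) and 0 for stress in WT (1 without). Their medians were then 0.11, 0.14, 0.21 and 0.089, and no adjusted p passed. Rsph1 went from 0.66 to 0.012, Dynlrb2 from 1.07 to 0.17, Tmem212 from 0.86 to 0.15, Dnah11 from 0.85 to 0.12, Foxj1 from 0.76 to 0.27, Ccdc153 from 1.12 to 0.50 and Hydin from 1.44 to 0.64. Mia went from 0.50 to −0.085. Spef2 kept the widest difference, 1.19 ± 0.59 against 2.01 ± 0.56 without Ttr (edgeR's unadjusted p = 0.0564), on counts of 0 to 34 per library. Ccdc39 had 0.075 with the term and 0.07 without. The KO stress libraries had 724 to 1919 CPM of Ttr, and no WT stress library lay in that range. WT stress replicates 4 and 5 had 642 and 2010 CPM, and the others at most 98.2 CPM. The differences with Ttr in the fit therefore lean on the fitted slope.

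**Figure D4:**
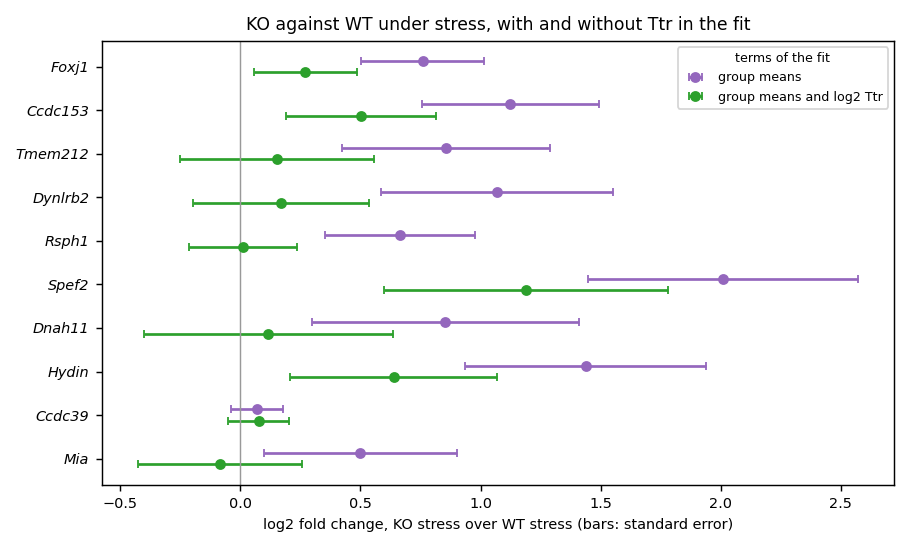
log2 fold change of KO stress over WT stress (horizontal axis, bars: standard error) for each gene, from the fit with group means alone (purple) and from the fit that also holds log2 Ttr (green). Green points lie nearer to 0 than purple points for all genes but Ccdc39, whose 2 points nearly coincide, and Spef2 keeps the largest value.

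Without Ccdc39 the genes varied together. The 36 pairs among the other 9 had r from 0.33 to 0.90 (median 0.72, log2 CPM, 24 libraries), and the 9 pairs with Ccdc39 had a median of −0.02. Within a library all genes share its depth and dissection. With group means taken out the median of the 36 pairs was 0.64, and with the slope on Ttr also taken out 0.36 (−0.35 to 0.83). The genes outside the list most like the mean z score of the 10 were Ccdc135 (r = 0.94), Rdh5, Calml4, 1700009P17Rik and Ttc21a (0.92 each), and Dnah6, Wdr63, Tmem72, F5 and Dnali1 (0.91 each). With group means out the closest were Ccdc135 (0.92), Ttc21a (0.91), Calml4 (0.90), Slc2a12 (0.90) and Rdh5 (0.89). Of the first 10, 5 were in the lists of cilium and ependymal genes above and 2, Tmem72 and F5, in the choroid plexus list. Ttr itself had r = 0.85 and stood at place 49 of 16303 genes.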

How the data were processed

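The authors deposited whole-number read counts per gene, aligned with STAR to mm10, per the submitters' processing notes; the sources used here name neither the counter nor the use of strand. The authors' normalized values and DESeq2 results were not used. Columns were assigned to samples by the names in the labels. Counts were tested with edgeR 4.0.16 (TMM, filterByExpr, glmQLFit robust, glmQLFTest) in 1 fit of 4 group means over 24 libraries, with 20 residual degrees of freedom, common dispersion 0.0478 and Benjamini-Hochberg adjustment at 0.05 over 16312 genes. The slope on Ttr added log2(CPM + 0.5) of Ttr to that fit. SE is the log2 change divided by the root of F. CPM uses TMM-scaled library sizes. Correlations used numpy 2.4.6 with 100000 resamples. DESeq2 1.42.0 and limma 3.58.1 (voom) were alternatives, as were other filters, RLE size factors, a term for the Rn45s set, the replicate block and leaving out each library. The edgeR steps were tested on simulated data.

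The 10 genes and the lists were chosen with earlier results of these data known. From each list, up to 3 genes past the threshold with the smallest p are named, and without any, up to 2 as values; the 10 and 5 genes most like the members were taken by r. No 2 libraries agreed within sampling noise (mean chi-square per gene at least 5.55). Nothing says whether replicates are separate mice, so p-values measure the spread between these samples. Floors cover counting error only. Positions come from GENCODE M21 and promoters from RefSeq, GRCm38.p6. Older symbols were matched through RefSeq synonyms.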

Additional observations from a re-analysis of the deposited data

Results flagged for a closer look

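The levels of 3 genes stood far from the rest of their group by Dixon's test, out of 40 groups of 5 to 7 libraries tested, where chance gives about 1 in 20. Foxj1 had 27.3 CPM in WT stress replicate 5, with the next library of that group at 14.9 CPM. That library also had Ttr at 2010 CPM, Hcrt at 25.7 CPM and Tcf7l2 at 105 CPM. Tmem212 had 4.75 CPM in KO control replicate 2, with the next at 2.71 CPM, beside Ttr at 1734 CPM. Mia had 5.49 CPM in WT control replicate 6, with the next at 2.98 CPM, beside the highest Ttr level of all libraries, 2440 CPM. The part of other tissue in these values was not tested.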

How the results depend on the processing

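No member was called in a comparison of groups under any setting run. For all genes, stress in WT gave 22 calls, 59 with DESeq2, 0 within the libraries high in Rn45s and 15 to 27 without 1 library. Stress in KO gave 1, 7 with DESeq2, 0 to 2 without 1 library, and 0 without the filter, with the Rn45s set or Ttr as a term, with only the groups compared, within either Rn45s set or without the 3 libraries highest in Tcf7l2. KO against WT in controls gave 3 with DESeq2. The slope on Ttr called 148 genes: 251 with DESeq2, 281 with voom, 312 without group means, 226 with the choroid plexus list for Ttr, 19 and 38 within the libraries high and low in Rn45s, 35 and 61 with the hypothalamus or thalamus list as a term, 41 without the 3 libraries highest in Tcf7l2 and 57 to 212 without 1 library. Its calls among the 10 genes were 0, 0, 0, 1 and 1 in the last 5 settings before that range, and 1 to 8 without 1 library (8 without WT stress replicate 4). The correlation called 209 genes: 83 with group means out, 23 and 20 within the Rn45s sets, 566 with the choroid plexus list and 153 to 249 without 1 library. Its calls among the 10 were 1 with group means out, 0 in each Rn45s set, 3 without the farthest 2 libraries and 5 to 9 without 1 library. Foxj1 under stress in WT turned to 0.18 with Ttr as a term and ran from −0.40 to 0.034 without 1 library. Mia, KO against WT under stress, was −0.085 with Ttr. Ccdc39 changed sign around 0: KO against WT under stress was −0.056 within the high Rn45s set and −0.038 without those 3. Its slope was 0.00027 with the Rn45s term, 0.0034 without group means, 0.015 with the choroid plexus list, 0.0022 with the hypothalamus term, 0.00014 without those 3 and −0.012 to 0.0024 without 1 library. Its r was −0.038 with group means out, −0.10 in the high set and −0.034 to 0.14 without 1 library. The cause of these shifts was not tested. Of the members' values, all 10 genes were counted here for KO against WT under stress, the slope and the correlation. Foxj1 and Spef2 alone were counted for stress in WT, stress in KO and the interaction, and no gene for KO against WT in controls. Outside the fits without 1 library, and besides changes of sign, 349 stayed on the same side, 67 lost a call and 7 gained one. The 349 include values that had no call to lose.

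Whether replicate numbers mark a pairing of the libraries is not known. Between groups, same-number pairs had a median correlation of 0.11 and other-number pairs one of −0.068. Of the same-number pairs, 17 of 33 had a correlation over 0.1, and 3 of 23 libraries correlated best with their own number. The numbers did follow the Rn45s sets, since the high libraries were the lowest-numbered of each group. With the replicate block, the slope was called for 146 genes and for 4 of the 10, with Hydin at an adjusted p of 0.0866 and Mia at 0.0709 (edgeR). Low counts of Spef2, Dnah11 and Hydin limit their precision.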
